A study of Homo sapiens with 6 samples.

Results

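Collagen genes were examined in TPC1, a human cell line from a papillary thyroid cancer, with and without TFCP2L1, which encodes a DNA-binding factor of the CP2 family. They were taken as every row of the counts table whose symbol is COL, a number, A and a number, with pseudogene and antisense names left out. This gave 37 genes of the 21173 in the table. The 6 RNA-seq libraries were 3 of TPC1 cells overexpressing TFCP2L1 and 3 of TPC1 cells carrying the vector, whose genotype the labels give as wild type, and both groups are the same line with no other allele or agent named. The labels do not say which promoter drives TFCP2L1, whether the cells were 1 clone, or whether replicates were separate cultures. The p-values thus reflect only how far these 6 samples scatter, and that scatter may be technical. Levels are the authors' deposited FPKM values, reads scaled to gene length and to the library's total. Differences are log2 fold changes of TFCP2L1 over vector cells from edgeR's quasi-likelihood test on the counts, with p adjusted by the Benjamini-Hochberg method over all 14431 genes tested and a threshold of 0.05.

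Collagens are secreted or membrane proteins built of chains that wind into a triple helix. Each type is named by a number, and its chains are told apart by a number after the letter A. Fibrillar collagens form the fibres of connective tissue, type IV collagens form the sheet of the basement membrane that surrounds thyroid follicles, and type VI collagens form beaded filaments beside it. Type VII anchors epithelium to the matrix below, fibril-associated collagens coat fibres, and transmembrane collagens hold cells to the matrix. Epithelial tumour cells are known to make basement membrane collagens, while most fibrillar collagen of a tumour comes from its fibroblasts.

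Library totals ran from 38213520 to 38987434 reads in TFCP2L1 cells and from 37928516 to 38249193 in vector cells. TFCP2L1 itself had 13578, 13885 and 12333 reads in the TFCP2L1 libraries, against 0, 0 and 1 in the vector libraries. The thyroid factor gene PAX8 had 55618 reads in TFCP2L1 and 61616 in vector libraries, and the thyroglobulin gene TG had 120 and 125, the first high and the second near 0 in both groups, and 0 of 3 tested thyroid markers were called by edgeR. Without TFCP2L1 replicate 3, PAX8 and FOXE1, another thyroid factor gene, were called lower (edgeR adjusted p = 0.0227 and 0.0228). The share of reads from the 13 mitochondrially encoded genes was highest in TFCP2L1 replicate 3 (7.59%) and vector replicate 2 (6.72%), and its part in the collagen results was not tested.

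TPC1 cells made mostly type VI and type IV collagen transcripts, and fewer of them in TFCP2L1 cells. The FPKM values of all 37 genes summed to 422, 353 and 400 in the TFCP2L1 libraries, against 503, 498 and 498 in the vector libraries. Every TFCP2L1 library lay below every vector library, and the mean was 392 ± 34.9 FPKM in TFCP2L1 cells and 499 ± 2.65 FPKM in vector cells (SD, n = 3 each), a ratio of 0.784. Collagen reads were 0.217% ± 0.0180 of all reads in TFCP2L1 cells and 0.285% ± 0.00363 in vector cells. In bulk RNA, fewer cells that make a transcript and less of it per cell cannot be told apart. COL6A1, COL6A2, COL4A2 and COL4A1 together held 84.9% ± 0.20 of the summed FPKM in TFCP2L1 cells and 85.4% ± 0.455 in vector cells, so their joint share was alike while the sum was lower. Of the difference in the sum, COL6A1 made up 28.3%, COL4A2 26.7%, COL6A2 25.5%, COL7A1 9.75% and COL4A1 6.65%. Of these COL6A1 was not called by edgeR (adjusted p = 0.0646), and the sum itself was not tested.

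**Figure D1:**
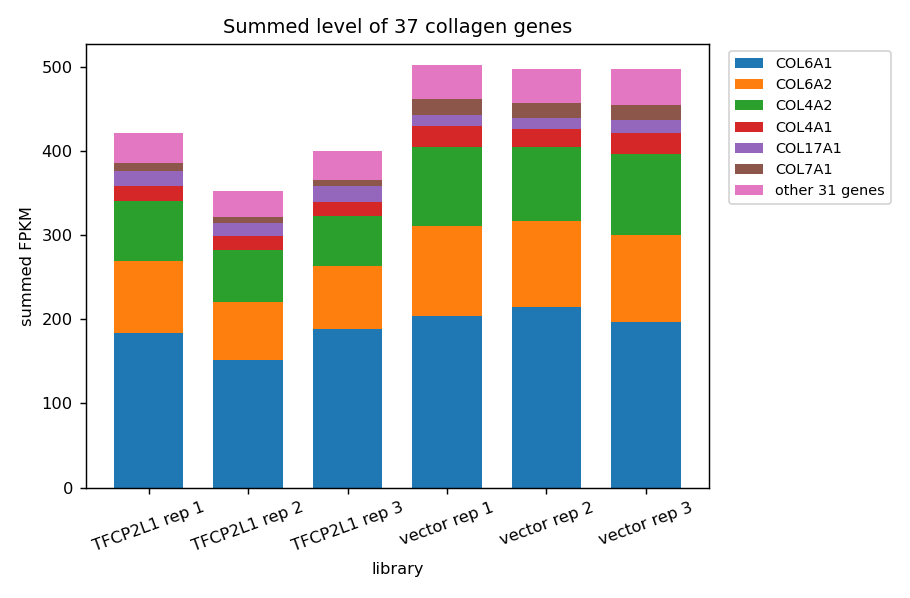
Summed FPKM of the 37 collagen genes in each library, stacked by gene (bars start at 0; the last segment holds the other 31 genes). The 3 TFCP2L1 libraries reach 353 to 422 FPKM and the 3 vector libraries 498 to 503, and COL6A1 is the largest segment in all 6.

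Only 15 of the 37 genes averaged at least 1 FPKM in either group. A filter on low counts, edgeR's filterByExpr, kept 24 for the test, and 13 did not pass. Of the 24 tested genes 7 fell (29.2%), 1 rose and 16 were not called. Over all tested genes 7.04% were called lower and 4.68% higher, 11.7% in all. The median log2 fold change was -0.37 over the 24 collagens and 0.0025 over all tested genes. In scaled counts the groups stood apart without overlap for 12 of the 24 (30% of all tested genes), with the TFCP2L1 libraries lower in 11 of them (15.6% of all tested genes). The genes that fell were COL9A2, COL5A1, COL7A1, COL16A1, COL4A2, COL4A1 and COL6A2, and the gene that rose was COL17A1.

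**Figure D2:**
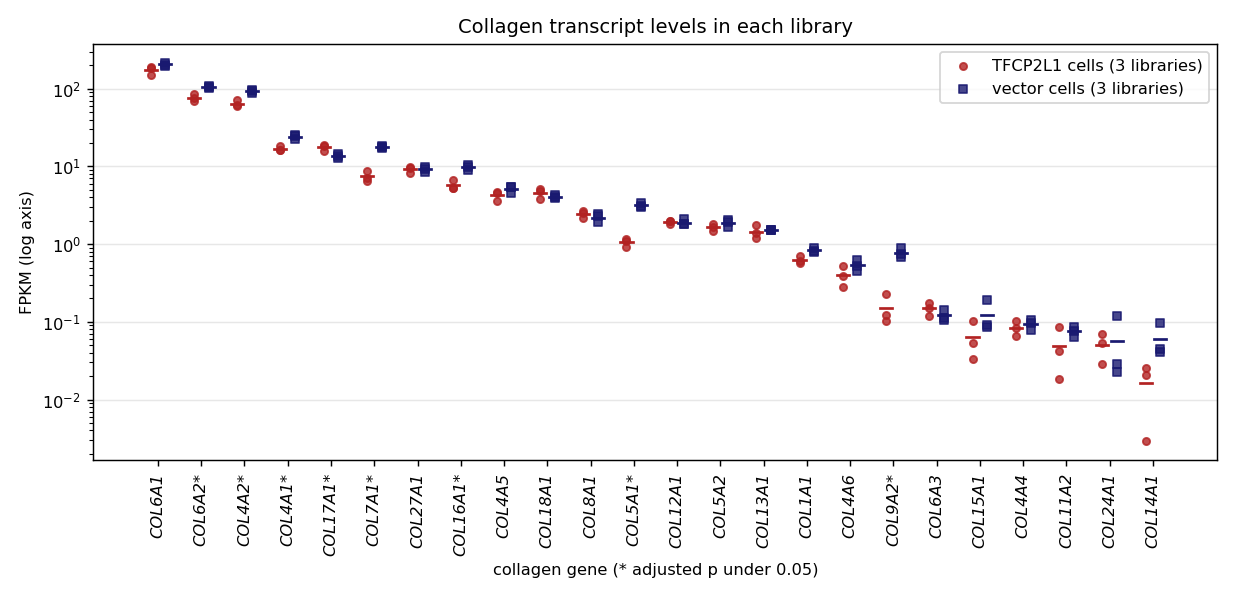
FPKM of the 24 tested collagen genes in each library on a log axis, ordered by mean level (circles TFCP2L1, squares vector, lines group means, asterisks adjusted p under 0.05). Levels run from over 150 FPKM for COL6A1 to under 0.1 FPKM for COL14A1, and among called genes the groups stand apart most for COL9A2, COL5A1 and COL7A1.

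Among fibrillar collagens, COL5A1 fell and its partner chain did not. COL5A1 (ENSG00000130635.15; GRCh38 chromosome 9, 134641774 to 134844843, plus strand) encodes the main chain of type V collagen, which is known to start fibres and set their width. It had 1.10, 0.918 and 1.17 FPKM in the TFCP2L1 libraries, against 3.03, 3.05 and 3.38 FPKM in the vector libraries. All TFCP2L1 libraries were low and the groups lay far apart, with a log2 fold change of -1.60 ± 0.11 (SE; edgeR adjusted p = 9.77e-08), a level 3.03-fold higher in vector cells. COL5A2, the second chain of type V, had 1.79, 1.68 and 1.48 FPKM in the TFCP2L1 libraries and 1.91, 1.66 and 2.04 FPKM in the vector libraries, and the groups overlapped (-0.20 ± 0.13; edgeR adjusted p = 0.339). The ratio of COL5A1 to COL5A2 was therefore 0.614, 0.546 and 0.789 in the TFCP2L1 libraries, against 1.59, 1.84 and 1.66 in the vector libraries. In vector cells the COL5A1 level stood above that of COL5A2 in every library, and in TFCP2L1 cells below it in every library. That order depends on the gene lengths behind the deposited values, 10732 bases for COL5A1 and 6983 for COL5A2. In reads, COL5A1 stood above COL5A2 in TFCP2L1 replicate 3, at 479 against 395.

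The other fibrillar genes were low or did not differ beyond the test's threshold. COL27A1, a fibrillar collagen of cartilage, was the highest, at 9.24 ± 0.809 FPKM in TFCP2L1 cells and 9.17 ± 0.779 in vector cells (SD, n = 3 each; -0.017 ± 0.089 on the log2 scale). COL1A1, the main chain of type I collagen, had 0.708, 0.609 and 0.564 FPKM in the TFCP2L1 libraries, against 0.799, 0.894 and 0.816 FPKM in the vector libraries. Its groups did not overlap, but the difference was not called (-0.44 ± 0.17; edgeR adjusted p = 0.118). COL1A2, which makes the second chain of type I, had 0 reads in the TFCP2L1 libraries and 2 in the vector libraries, and COL3A1, type III collagen, had 0 and 3. These are at or below the 3 reads that a count of 0 allows, so no difference was detectable at this depth. COL11A2 and COL24A1 stayed under 0.13 FPKM in every library, and COL2A1, the collagen of cartilage, had 1 read in TFCP2L1 and 4 in vector libraries.

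Both main chains of the basement membrane collagen fell by a similar amount. COL4A2 (ENSG00000134871.18; chromosome 13, 110305812 to 110513209, plus strand) had 70.6, 61.7 and 59.7 FPKM in the TFCP2L1 libraries, against 94.2, 87.9 and 96.2 FPKM in the vector libraries. COL4A1 (ENSG00000187498.15; chromosome 13, 110148963 to 110307233, minus strand) had 18.2, 16.3 and 16.4 FPKM in the TFCP2L1 libraries, against 24.5, 22.4 and 25.5 FPKM in the vector libraries. The groups did not overlap for either gene, and the log2 fold changes were -0.56 ± 0.08 for COL4A2 and -0.54 ± 0.08 for COL4A1 (SE; edgeR adjusted p = 0.000160 and 0.000205). The FPKM ratio of COL4A1 to COL4A2 was 0.265 ± 0.00784 in TFCP2L1 cells and 0.260 ± 0.00499 in vector cells (SD, n = 3 each), with overlapping libraries. The height of that ratio depends on the gene lengths behind the deposited values, 15595 bases for COL4A1 and 6446 for COL4A2. The antisense genes COL4A2-AS1 and COL4A2-AS2 share 0.42% and 0.073% of the exon bases of COL4A2.

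The other tested type IV chains, COL4A5, COL4A6 and COL4A4, were not called. COL4A5, a chain of kidney and epithelial basement membranes, had 4.63, 4.51 and 3.59 FPKM in the TFCP2L1 libraries, against 5.48, 4.57 and 5.37 FPKM in the vector libraries (-0.30 ± 0.11; edgeR adjusted p = 0.0842), and the groups overlapped narrowly in FPKM but not in scaled counts. COL4A6 averaged 0.400 ± 0.122 and 0.533 ± 0.0843 FPKM in TFCP2L1 and vector cells, and COL4A4 0.0833 ± 0.0181 and 0.0941 ± 0.0144 FPKM. COL4A3, whose chain joins those of COL4A4 and COL4A5 in the kidney filter, had 2 reads in TFCP2L1 and 1 in vector libraries. The genes COL4A1 and COL4A2 lie head to head, as do COL4A3 with COL4A4 and COL4A5 with COL4A6. The fold changes of COL4A5 and COL4A6 had the same sign, and COL4A3 was too low to compare with COL4A4.

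**Figure D3:**
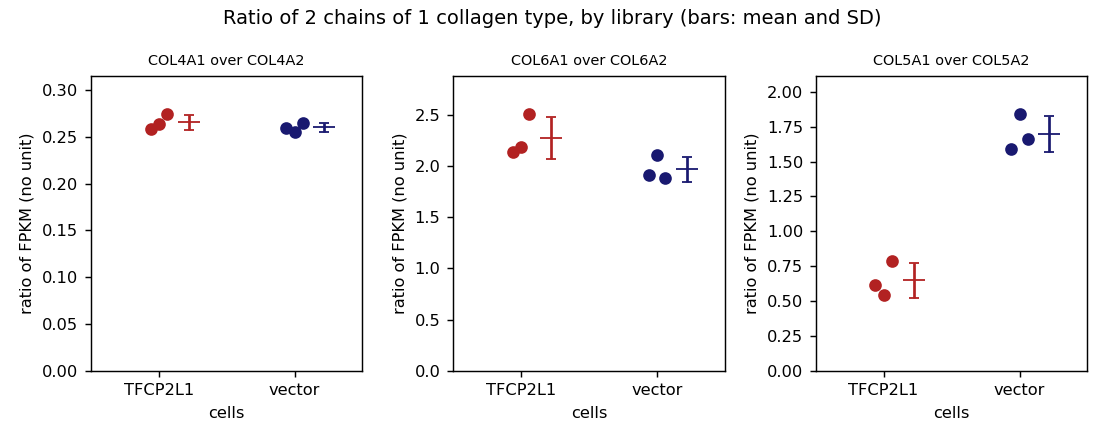
Ratio of the FPKM of 2 chains of the same collagen type in each library (points), with mean and SD beside them, in TFCP2L1 (left) and vector cells (right) and axes from 0. COL4A1 over COL4A2 overlaps between groups, while COL5A1 over COL5A2 is 0.546 to 0.789 in TFCP2L1 and 1.59 to 1.84 in vector libraries.

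COL6A1 and COL6A2, chains of type VI collagen, were the most abundant collagen transcripts, and of the 3 type VI genes COL6A2 was called. COL6A2 (ENSG00000142173.14; chromosome 21, 46098097 to 46132849, plus strand) had 86.1, 69.5 and 75.3 FPKM in the TFCP2L1 libraries, against 107, 102 and 104 FPKM in the vector libraries, and it fell (-0.47 ± 0.08; edgeR adjusted p = 0.00107). COL6A1 (ENSG00000142156.14; chromosome 21, 45981737 to 46005050, plus strand) had 184, 152 and 188 FPKM in the TFCP2L1 libraries, against 204, 215 and 196 FPKM in the vector libraries. Its groups did not overlap, but by edgeR it was not called (-0.26 ± 0.09; adjusted p = 0.0646). It was called lower by DESeq2 (adjusted p = 0.0393), by edgeR without the filter on low counts (0.0235) and by edgeR without TFCP2L1 replicate 3 (0.0132). In 9 of the 12 alternative fits COL6A1 was not called, with edgeR adjusted p up to 0.207, without vector replicate 2. The ratio of COL6A1 to COL6A2 was 2.13, 2.18 and 2.50 in the TFCP2L1 libraries, against 1.91, 2.11 and 1.88 in the vector libraries. COL6A3, the long chain that type VI filaments are known to need, was low in both groups, at 0.149 ± 0.0291 FPKM in TFCP2L1 cells and 0.121 ± 0.0201 in vector cells, with overlapping libraries.

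The 3 chain ratios of types IV, V and VI were each compared between groups by an exact two-sided permutation test of the log2 ratio. The exact p was 0.1 for COL5A1 over COL5A2 and for COL6A1 over COL6A2, the smallest that 3 against 3 libraries allow, and 0.5 for COL4A1 over COL4A2. Adjusted over the 3 ratios, these exact values became 0.15, 0.15 and 0.5, so this design could not pass the threshold. The log2 ratios differed by -1.40 for type V, 0.21 for type VI and 0.030 for type IV.

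COL7A1, the only chain of type VII collagen, fell. This gene (ENSG00000114270.17; chromosome 3, 48564073 to 48595267, minus strand) encodes the anchoring fibrils that hold epithelium to its bed and are known from skin. It had 8.62, 6.52 and 7.20 FPKM in the TFCP2L1 libraries, against 18.5, 17.3 and 18.0 FPKM in the vector libraries. The groups lay far apart, with a log2 fold change of -1.30 ± 0.09 (SE; edgeR adjusted p = 1.00e-07), a level 2.46-fold higher in vector cells. It made up 1.90% ± 0.130 of the summed collagen FPKM in TFCP2L1 cells and 3.59% ± 0.109 in vector cells (SD, n = 3 each).

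COL17A1, a transmembrane collagen of the hemidesmosome that fixes epithelial cells to the basement membrane, rose. This gene (ENSG00000065618.19; chromosome 10, 104031286 to 104085957, minus strand) had 18.5, 15.8 and 19.0 FPKM in the TFCP2L1 libraries, against 13.7, 12.9 and 14.4 FPKM in the vector libraries. Every TFCP2L1 library was higher than every vector library, with a log2 fold change of 0.35 ± 0.08 (SE; edgeR adjusted p = 0.0126). The call was lost without TFCP2L1 replicate 1 (edgeR adjusted p = 0.0569), vector replicate 1 (0.0575) or vector replicate 2 (0.0565), while its log2 fold change stayed between 0.30 and 0.43 without any single library. COL17A1 and COL7A1, both of the junction between epithelium and matrix, thus moved in opposite directions: COL7A1 stood above COL17A1 in FPKM in each vector library and below it in each TFCP2L1 library. The other tested transmembrane collagen, COL13A1, averaged 1.45 ± 0.290 FPKM in TFCP2L1 cells and 1.51 ± 0.0111 in vector cells and was not called.

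Fibril-associated collagens held the largest relative fall. COL9A2 (ENSG00000049089.14; chromosome 1, 40300487 to 40317813, minus strand) encodes a chain of type IX collagen, which coats the type II fibres of cartilage. It had 0.122, 0.227 and 0.104 FPKM in the TFCP2L1 libraries, from 20, 38 and 17 reads. The vector libraries had 0.896, 0.676 and 0.750 FPKM, from 146, 111 and 123 reads. The groups did not overlap (-2.38 ± 0.31; edgeR adjusted p = 7.41e-05), a level 5.19-fold higher in vector cells, although the gene was low in both. The partner chains COL9A1 and COL9A3 had 0 reads each in TFCP2L1 libraries and 1 read each in vector libraries. COL16A1 (ENSG00000084636.17; chromosome 1, 31652247 to 31704319, minus strand), which binds several kinds of fibre, had 6.78, 5.23 and 5.27 FPKM in the TFCP2L1 libraries, against 9.86, 9.003 and 10.4 FPKM in the vector libraries. All TFCP2L1 libraries were lower (-0.79 ± 0.10; edgeR adjusted p = 8.44e-05), and 1.26% of its exon bases are shared with an antisense gene. COL12A1, another coat of type I fibres, averaged 1.94 ± 0.0920 FPKM in TFCP2L1 cells and 1.89 ± 0.164 in vector cells and was not called. COL14A1 had 1, 9 and 7 reads in the TFCP2L1 libraries and 15, 14 and 33 in the vector libraries, with no overlap and no call (-1.88 ± 0.67; edgeR adjusted p = 0.0829).

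**Figure D4:**
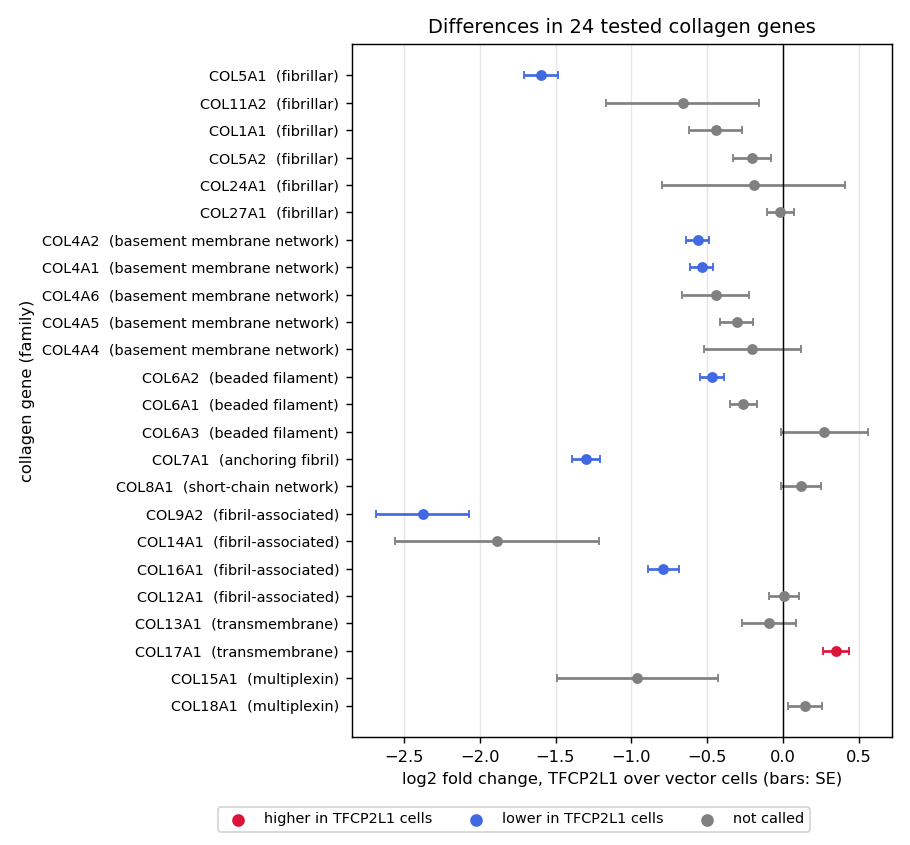
Log2 fold change of TFCP2L1 over vector cells with its SE for the 24 tested collagen genes, grouped by family. The 7 genes that fell run from -2.38 (COL9A2) to -0.47 (COL6A2), and COL17A1 at 0.35 is the only gene called higher.

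The short-chain network and multiplexin collagens were not called. COL8A1, known from the layer under endothelium, averaged 2.43 ± 0.259 FPKM in TFCP2L1 cells and 2.20 ± 0.269 in vector cells. COL18A1, a basement membrane collagen whose end fragment is endostatin, averaged 4.58 ± 0.677 and 4.07 ± 0.222 FPKM, and 16.4% of its exon bases are shared with SLC19A1 on the other strand, so its level is uncertain. COL15A1 stayed under 0.2 FPKM in every library. COL8A2 was under the filter, with 6, 2 and 12 reads in the TFCP2L1 libraries and 1, 0 and 1 in the vector libraries. The ratio of its summed reads, scaled to library totals, was 9.90, and its exact 95% interval ran between 2.41 and 87.4, which covers counting error only. In the edgeR test without a filter its adjusted p was 0.176. In that fit 816 of 21173 genes were called higher and 1098 lower. None of the 13 untested genes was called in it, where their adjusted p ran from 0.176 to 0.996. None of them had more than 13 reads in a library. Of those 13 genes 9 had 5 or fewer reads over all 6 libraries.

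By their median level, the genes that fell were not the least expressed, though COL9A2 averaged only 0.774 FPKM in vector cells. In vector cells the median level was 18.0 FPKM for the 7 genes that fell, 1.17 FPKM for the 16 not called and 5.19 FPKM over all tested genes, and a lower level widens the error: the SE of the genes not called ran from 0.0863 to 0.674 on the log2 scale. Median gene length was 6446 bases for the 7, 7840 for the 16 and 4024 over all tested genes. Among the 4168 tested genes longer than 6000 bases the median log2 fold change was 0.0047, and 7.13% were called lower.

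RefSeq start regions (GRCh38.p14) were matched for 28 of the 37 genes and for all 7 that fell. COL4A1 and COL4A2 are transcribed away from each other from RefSeq starts with 126 bases between them, shown first because both genes fell by a similar amount. The 250 bases before the starts of COL5A1, COL7A1 and COL17A1 follow, as the 2 deep falls at levels well above the filter and the gene that rose. GENCODE gene bounds differ from these RefSeq starts. The stretch between COL4A1 and COL4A2, and the 250 bases before the starts of COL9A2 and COL16A1, lie inside a GENCODE gene. Those of COL5A1, COL17A1 and COL6A2 lie partly inside theirs. Capitals mark GGGCGG on either strand, the core of the known site of SP1, a general activator of promoters rich in G and C.
COL4A1-COL4A2, chr13:110307158-110307283, plus strand: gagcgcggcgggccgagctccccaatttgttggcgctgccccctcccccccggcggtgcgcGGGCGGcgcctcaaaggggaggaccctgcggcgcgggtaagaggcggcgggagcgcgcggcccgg
COL5A1, chr9:134641553-134641802, plus strand: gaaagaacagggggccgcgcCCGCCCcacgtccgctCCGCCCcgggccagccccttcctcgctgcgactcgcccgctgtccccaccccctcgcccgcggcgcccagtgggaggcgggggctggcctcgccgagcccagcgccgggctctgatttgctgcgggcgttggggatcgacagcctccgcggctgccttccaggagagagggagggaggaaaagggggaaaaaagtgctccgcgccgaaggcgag
COL7A1, chr3:48595330-48595579, minus strand: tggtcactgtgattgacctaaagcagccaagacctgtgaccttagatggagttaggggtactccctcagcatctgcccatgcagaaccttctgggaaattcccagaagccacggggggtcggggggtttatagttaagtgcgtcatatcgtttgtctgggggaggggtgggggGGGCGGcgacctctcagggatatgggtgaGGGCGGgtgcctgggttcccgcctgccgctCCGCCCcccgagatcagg
COL17A1, chr10:104085881-104086130, minus strand: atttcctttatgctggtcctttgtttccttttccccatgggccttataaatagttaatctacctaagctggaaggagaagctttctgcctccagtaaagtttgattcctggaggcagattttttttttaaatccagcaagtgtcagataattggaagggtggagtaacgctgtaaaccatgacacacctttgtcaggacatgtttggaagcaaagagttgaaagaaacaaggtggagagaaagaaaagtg
In the 250 bases before the start, GGGCGG was found in 7 of the 7 collagens that fell, 11 of 19 tested collagens with a sequence (57.9%) and 65.9% of all tested genes, and not in COL17A1. This motif was chosen after the values were seen. The windows of COL4A1 and COL4A2 share the 126 bases shown, with the match in them. In the 300 bases around the start the median GC content was 74% for the collagens that fell. It was 65.7% for tested collagens and 65% for all tested genes, and the COL17A1 window shown holds 40.4%. How far the motif counts follow from GC content was not tested. The known motif of TFCP2L1 is a spaced repeat of CCAG. In the same windows CCAG followed by 6 bases of any kind and CCNG, on either strand, was found in 2 of the 19 tested collagens (10.5%), COL9A2 and COL6A2, both of which fell, and in 13.6% of all tested genes. Their windows are shown with the match in capitals, and that in COL9A2 contains a GGGCGG.
COL9A2, chr1:40317287-40317536, minus strand: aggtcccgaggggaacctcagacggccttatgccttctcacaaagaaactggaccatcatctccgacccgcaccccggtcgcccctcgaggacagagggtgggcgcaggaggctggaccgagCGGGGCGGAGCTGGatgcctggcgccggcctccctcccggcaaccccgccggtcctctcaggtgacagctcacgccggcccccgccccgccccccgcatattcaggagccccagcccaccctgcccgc
COL6A2, chr21:46097862-46098111, plus strand: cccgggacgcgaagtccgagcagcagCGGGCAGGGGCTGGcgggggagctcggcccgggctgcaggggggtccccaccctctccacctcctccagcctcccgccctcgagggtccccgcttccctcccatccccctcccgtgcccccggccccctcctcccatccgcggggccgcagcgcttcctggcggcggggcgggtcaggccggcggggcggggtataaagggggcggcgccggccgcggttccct
Neither the stricter form, with CCAG in both places, nor TGANTCA, the motif of AP-1, was found in the 300 bases around the start of the 19 tested collagens. They were found in 3.75% and 5.21% of the tested genes. A match or its absence describes these letters only and says nothing of binding.

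Enzymes that build collagen also changed in part. The gene lists used from here on were chosen with earlier results of these data known, so their counts are descriptive only. In the list of collagen processing and crosslinking genes, 10 of 35 tested members fell and 1 rose, with a median log2 fold change of -0.14, where 7.04% of all tested genes were called lower and 4.68% higher. TLL2, a protease of the family that trims the C-terminal ends of procollagen, rose to 9.71, 9.10 and 9.08 FPKM in the TFCP2L1 libraries, against 1.71, 1.28 and 1.54 FPKM in the vector libraries (2.59 ± 0.11; edgeR adjusted p = 2.90e-10). BMP1, the main protease of that family, moved the other way, with 9.65, 8.42 and 9.75 FPKM in the TFCP2L1 libraries, against 13.7, 14.1 and 13.2 FPKM in the vector libraries (-0.58 ± 0.09; edgeR adjusted p = 0.000317). P3H2, which hydroxylates prolines of basement membrane collagen, fell by 0.74 on the log2 scale to 32.5 ± 2.85 FPKM in TFCP2L1 cells, against 53.2 ± 5.26 FPKM in vector cells (SD, n = 3 each). LOXL4, a crosslinking enzyme, fell to 1.56 ± 0.153 FPKM in TFCP2L1 cells, against 2.41 ± 0.180 FPKM in vector cells. The number of members that fell was 6 without vector replicate 2 or 3, and 6 to 10 over all single libraries left out. The collagen chaperone gene SERPINH1 and P4HB, a subunit of prolyl hydroxylase, named beyond the rule, were not called, at 65.1 ± 6.95 and 298 ± 5.35 FPKM in TFCP2L1 cells and 67.9 ± 1.29 and 293 ± 2.33 FPKM in vector cells.

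Of 10 tested collagen receptors 3 fell and 1 rose, with a median log2 fold change of -0.099 (7.04% of all tested genes lower, 4.68% higher). ITGA1, the integrin chain that binds type IV collagen, fell to 3.29, 3.52 and 3.51 FPKM in the TFCP2L1 libraries, against 5.25, 5.40 and 5.21 FPKM in the vector libraries. MRC2, which takes up collagen fragments, fell to 12.9 ± 1.01 FPKM in TFCP2L1 cells, against 19.3 ± 0.0556 FPKM in vector cells (-0.61 ± 0.08; edgeR adjusted p = 7.22e-05). The calls of OSCAR (-0.37 ± 0.10) and ADGRG1 (0.35 ± 0.10) were near the threshold (edgeR adjusted p = 0.0311 and 0.0340). Each was lost when any 1 of several libraries was left out. OSCAR was not called without TFCP2L1 replicate 1 (edgeR adjusted p = 0.107) or 2 (0.0930) or vector replicate 1 (0.101), 2 (0.107) or 3 (0.0550). ADGRG1 was not called without TFCP2L1 replicate 1 (edgeR adjusted p = 0.132) or 3 (0.0593) or vector replicate 1 (0.150) or 3 (0.160).

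Of 10 tested collagen-degrading enzymes 4 fell and 0 rose by edgeR, with a median log2 fold change of -0.21 (7.04% of all tested genes lower, 4.68% higher). The count that rose was 1 without the filter on low counts and 1 without TFCP2L1 replicate 3. MMP24, a membrane-bound metalloproteinase gene under the filter, had 11, 17 and 6 reads in the TFCP2L1 libraries and 1, 0 and 2 in the vector libraries (edgeR adjusted p without a filter = 0.0429). The cysteine protease CTSS had 0.676, 1.32 and 0.711 FPKM in the TFCP2L1 libraries, against 2.94, 2.84 and 3.51 FPKM in the vector libraries (-1.80 ± 0.21; edgeR adjusted p = 2.45e-05). CTSB, another lysosomal protease, fell to 275 ± 6.88 FPKM in TFCP2L1 cells, against 465 ± 18.8 FPKM in vector cells. MMP2, a gelatinase that cleaves type IV collagen, fell to 19.1, 18.1 and 19.7 FPKM in the TFCP2L1 libraries, against 26.7, 24.7 and 27.5 FPKM in the vector libraries. The second gelatinase gene, MMP9, fell as well (-0.42 ± 0.10; edgeR adjusted p = 0.0128), and its call was lost when vector replicate 2 was left out (adjusted p = 0.0501).

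Of 13 tested genes for proteins that sit on collagen in the matrix 8 fell and 1 rose, with a median log2 fold change of -0.55 (7.04% of all tested genes lower, 4.68% higher). This list too was chosen with earlier results known. TGFBI, which links collagen to cells, fell to 7.88 ± 0.867 FPKM in TFCP2L1 cells, against 25.1 ± 1.60 FPKM in vector cells (-1.70 ± 0.10; edgeR adjusted p = 1.48e-08). NID2, which ties type IV collagen to laminin, had 26.3, 26.7 and 27.3 FPKM in the TFCP2L1 libraries, against 56.8, 57.6 and 56.7 FPKM in the vector libraries (-1.12 ± 0.07). NID1, a close relative of NID2, was not called, at 28.3 ± 1.13 FPKM in TFCP2L1 cells and 29.01 ± 1.27 FPKM in vector cells. MATN2 fell by 1.61 and the small proteoglycan gene BGN by 1.04 on the log2 scale, and the BGN call was lost without TFCP2L1 replicate 1 (edgeR adjusted p = 0.115) or 2 (0.123) or vector replicate 1 (0.0819) or 2 (0.137). Named beyond the rule after its values were seen, the basement membrane proteoglycan gene HSPG2 fell by 0.72, and THBS1, the member that rose, did so by 0.99 on the log2 scale.

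**Figure D5:**
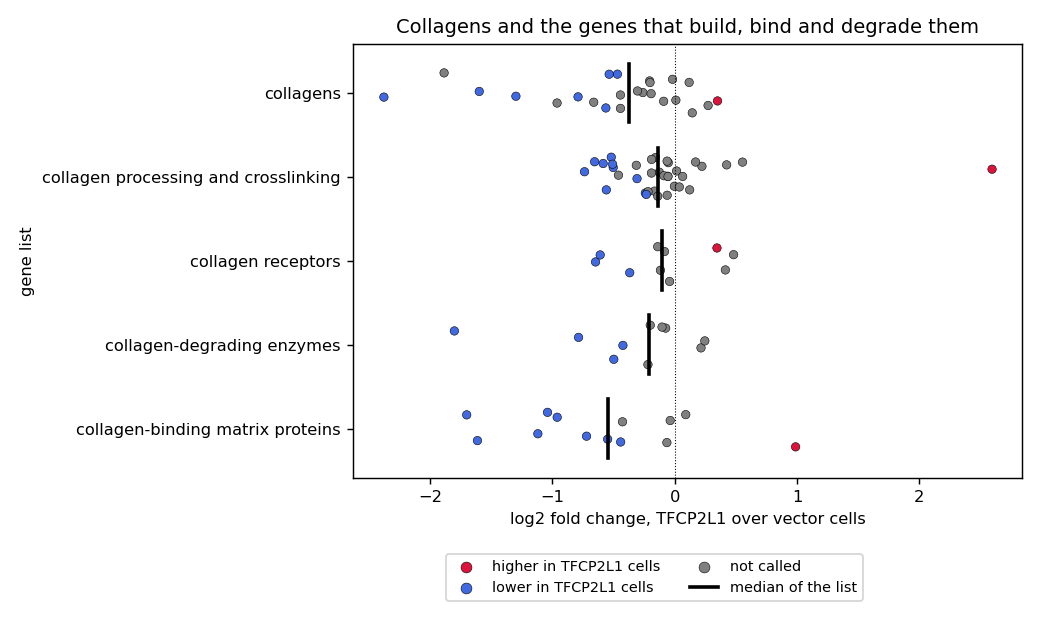
Log2 fold change of TFCP2L1 over vector cells for each tested gene of 5 lists (points, with random vertical scatter), with the median of each list as a bar. The medians are -0.37 for collagens, -0.14 for processing enzymes, -0.099 for receptors, -0.21 for degrading enzymes and -0.55 for collagen-binding proteins, against 0.0025 over all tested genes. The lists were chosen with earlier results of these data known.

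Markers of other cell types that make collagen were looked at beside these results. Of 5 tested fibroblast markers 2 fell, FBLN1 (-0.41 ± 0.08) and ACTA2 (-0.59 ± 0.15), and 0 rose, where 7.04% of all tested genes were called lower. The summed level of the 8 fibroblast markers in the table was 20.4 to 22.3 FPKM in TFCP2L1 libraries and 25.9 to 29.2 FPKM in vector libraries. Of that list PDGFRA, THY1 and FAP were near 0, with 12, 5 and 4 reads in TFCP2L1 libraries and 14, 11 and 8 in vector libraries. COL1A2 and COL3A1 were near 0 as well. The markers PDGFRB, LUM and MFAP5 were detected in both groups and not called. They had 382, 111 and 60 reads in TFCP2L1 libraries and 421, 145 and 65 in vector libraries. The ACTA2 call was lost without TFCP2L1 replicate 2 (edgeR adjusted p = 0.0565), vector replicate 1 (0.0601) or vector replicate 3 (0.0934). The chondrocyte list held 7 genes, of which 4 had a row in the counts table and 2 were tested. Of these SOX9, a factor that activates cartilage collagen genes, rose by 0.45 on the log2 scale. Over all tested genes 4.68% were called higher. The other tested chondrocyte marker, MATN3, was not called, with 601 reads in TFCP2L1 and 548 in vector libraries. The cartilage genes ACAN and COL2A1, the latter not in that list, had 0 and 1 reads in TFCP2L1 and 4 reads each in vector libraries. Endothelial markers summed to at most 0.299 FPKM and leukocyte markers to at most 0.595 FPKM in any library, with 0 called among the 1 tested member of each list by edgeR. Without TFCP2L1 replicate 2, 1 endothelial marker was called higher. The endothelial receptor gene TEK, under the filter, had 24, 10 and 15 reads in the TFCP2L1 libraries and 2, 2 and 6 in the vector libraries, with no overlap (edgeR adjusted p without a filter = 0.0645).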

How the data were processed

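RNA was sequenced from 3 TFCP2L1 and 3 vector libraries of TPC1 cells (VAHTS Universal V6 kit, per the labels' protocols). The submitters' processing notes name fastp, HISAT2, HTSeq and GRCh38.p13; versions, annotation and strand setting are not given in the sources used here. Without the strand setting, reads of overlapping antisense genes could not be told apart. The authors deposited raw read counts and FPKM values. The deposited FPKM values match the counts scaled by library total and gene length, within 0.000107%, and are no independent measurement; they were used only to describe levels.

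Counts were fitted with edgeR 4.0.16 in R 4.3.3 on all 6 libraries: filterByExpr (14431 of 21173 genes), TMM scaling, robust quasi-likelihood test (two-sided), adjusted over all tested genes. The SE was obtained as the absolute log2 fold change over √F. DESeq2 1.42.0, other scalings and filters, a replicate block and leaving out each library were alternatives. The comparison was tested on simulated data. Full values were given for called collagens and the 6 with the highest mean FPKM; of the other lists up to 4 called members with the largest change were named. The members and lists were chosen with earlier results of these data known. The counting interval is exact binomial. Chi-square per gene between replicates was 7.49 to 42.4, so no library was a copy of another. Positions come from GENCODE v29 and start regions from RefSeq. The collagen genes COL5A3, COL6A5, COL6A6, COL10A1, COL20A1, COL22A1 and COL28A1 had no row under these symbols in the counts table and were not analysed here.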

Additional observations from a re-analysis of the deposited data

How the results depend on the processing

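The collagen calls changed little. The same 7 collagen genes fell under all 12 alternatives, with the count at 7 to 8 when single libraries were left out, 8 by DESeq2 and 8 without a filter, where COL6A1 was added. The count of collagens that rose was 0 to 1 without single libraries, since only COL17A1 was called. Of 284 values of single genes under the alternatives, 3 lost a call (COL17A1), 3 gained one (COL6A1) and 10 changed sign, all of genes never called. The log2 fold change of COL27A1 was 0.010 with library totals and -0.081 to 0.052 without single libraries, that of COL12A1 -0.027 to 0.083, that of COL13A1 -0.26 to 0.031 and that of COL24A1 -0.57 to 0.95. Over all genes, the count called higher was 294 to 763 and lower 654 to 1108 without single libraries, against 676 and 1016. With library totals 910 rose and 921 fell, a split that differs from that of the TMM fit, and the median of all genes moved by 0.027 on the log2 scale. The replicate numbers did not pair the samples: deviations of same-numbered libraries correlated at 0.0721, -0.161 and -0.124. Those of differently numbered libraries correlated at -0.108 to 0.220, highest for TFCP2L1 replicate 3 with vector replicate 2. With the replicate block 331 genes rose and 665 fell over all genes, 7 collagens fell and 1 rose, and the calls of OSCAR, ADGRG1, MMP9 and BGN were lost (edgeR adjusted p = 0.101, 0.123, 0.0561 and 0.113). So were those of P3H1, FKBP10, LOXL1 and LOXL2 (0.113, 0.0617, 0.0678 and 0.128), which left 6 of the processing genes lower, against 10. The causes of these shifts were not tested. Depth limits the 13 untested collagens.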
